A study of Mus musculus with 321 samples.

Results

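Twist1, Twist2, Prrx1, Snai1, Snai2, Zeb1 and Zeb2 encode transcription factors of mesenchymal cells. They were taken by name, as 7 of the 21883 protein-coding genes of the RefSeq table for GRCm38. For each gene a window was set that holds the gene and 50 kb on each side, and the open-chromatin peaks, repressive histone islands and Tcf-1 binding summits in it were read from the deposited lists. The series asked how the transcription factor Tcf-1 relates to open chromatin in developing T cells, and what it does to chromatin when it is made in a fibroblast. ATAC-seq, which cuts and tags accessible DNA with the Tn5 transposase, was done on sorted CD4+CD8+ T cells of mice (double-positive, DP), in 2 libraries of C56BL/6 (WT) animals and 2 of TCF-1-/- deltaVII animals (Tcf-1 KO). It was also done on NIH3T3 cells, an established fibroblast line of NIH/Swiss origin used at passages 8-12, in 4 libraries with an empty retrovirus (Empty RV) and 4 with a retrovirus carrying Tcf-1 (Tcf-1 RV). The ChIP-seq lists used here were 2 each of H3K27me3 and H3K9me3 from NIH3T3 cells for which the labels name no virus, and 1 merged list of Tcf-1 summits from Tcf-1 RV cells. The labels give no age of the animals, no number of animals per library and no promoter for the retrovirus. They also do not say whether replicates came from separate animals or infections, so the p-values measure the spread between these libraries, which may be technical.

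The 7 factors are known for the passage of epithelial cells to a mesenchymal state and for keeping mesenchymal cells as they are. Twist1 and Twist2 are basic helix-loop-helix proteins that pair with E proteins, Prrx1 is a homeobox factor of limb and craniofacial mesenchyme, Snai1 and Snai2 are zinc-finger repressors, and Zeb1 and Zeb2 carry zinc fingers on both sides of a homeodomain. The Snail and Zeb proteins bind E-boxes of the form CACCTG in genes such as that of E-cadherin. In the thymus, Zeb1 and Zeb2 are also known as factors of lymphocytes, while Twist and Prrx1 are not thymocyte genes by textbook knowledge. Open chromatin at a gene is needed for its use but does not measure its RNA.

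The peak lists differed in length. WT DP lists held 23249 and 30985 peaks and Tcf-1 KO lists 11171 and 12209, while the Empty RV lists ran from 22778 to 58026 and the Tcf-1 RV lists from 36583 to 62639. Within the gene and 1 kb each side, Tcf7, the gene of Tcf-1, had 2 peaks in each WT library and 1 in each KO library. Empty RV libraries had between 1 and 5 peaks there and Tcf-1 RV libraries between 5 and 8, and a peak list shows neither the deletion nor which copy of the gene was read. Of 12 T lineage markers, 11 had a peak at the gene in both WT libraries, against 52.7% of all genes, and 4 in both KO libraries. No share of all genes was taken for the KO libraries, whose lists are shorter, so the 4 cannot be read as a loss particular to these markers. Of 10 fibroblast markers, 6 had one in all 4 Empty RV libraries and 2 in both WT DP libraries, where 46.2% of all genes had one in the Empty RV libraries. The part of list length in the results below was not tested. In such bulk samples, fewer cells with an open region and less open chromatin per cell cannot be told apart.

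The starts of 4 genes are shown, those for which the promoter table holds the outermost start. Their openness differed: those of Twist1 and Twist2 had peaks in fibroblasts and none in thymocytes. That of Snai1 had a peak in all 12 libraries, and that of Zeb2 in 4 of 8 NIH3T3 libraries. The sequences are the 250 bases before the outermost RefSeq start (GRCm38.p6), 5′ to 3′ on the strand of the gene. Capitals mark the letters CTTTGA or CTTTGT, the core that Tcf factors recognise, and CACCTG, each on either strand. Twist1 lay on the plus strand at chr12:33957421-33957670, Twist2 on the plus strand at chr1:91801211-91801460, Snai1 on the plus strand at chr2:167537945-167538194 and Zeb2 on the minus strand at chr2:45117443-45117692.
Twist1: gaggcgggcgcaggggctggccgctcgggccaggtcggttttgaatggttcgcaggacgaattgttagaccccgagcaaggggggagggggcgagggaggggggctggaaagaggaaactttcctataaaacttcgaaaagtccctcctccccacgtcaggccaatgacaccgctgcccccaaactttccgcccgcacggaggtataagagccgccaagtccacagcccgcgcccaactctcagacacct
Twist2: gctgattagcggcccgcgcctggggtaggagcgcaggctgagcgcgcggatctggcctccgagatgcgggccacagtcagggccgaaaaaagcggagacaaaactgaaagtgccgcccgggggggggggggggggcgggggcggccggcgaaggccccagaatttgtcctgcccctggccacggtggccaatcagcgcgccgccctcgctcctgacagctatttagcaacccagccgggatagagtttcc
Snai1: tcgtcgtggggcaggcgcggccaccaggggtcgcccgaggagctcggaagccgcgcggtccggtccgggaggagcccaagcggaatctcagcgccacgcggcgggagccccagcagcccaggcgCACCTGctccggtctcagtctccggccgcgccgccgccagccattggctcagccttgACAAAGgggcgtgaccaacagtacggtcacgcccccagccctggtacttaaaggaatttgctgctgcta
Zeb2: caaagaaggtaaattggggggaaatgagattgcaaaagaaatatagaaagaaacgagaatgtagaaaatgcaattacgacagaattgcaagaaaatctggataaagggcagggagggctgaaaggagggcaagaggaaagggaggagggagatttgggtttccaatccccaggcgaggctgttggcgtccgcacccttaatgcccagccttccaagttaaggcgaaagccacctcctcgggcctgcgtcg

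The Snai1 stretch held 1 CACCTG, and 1 ACAAAG, the reverse complement of CTTTGT, nearer to the transcript start, which lies 69 bases after the first base of ACAAAG. The Twist1, Twist2 and Zeb2 stretches held none of the 3 motifs. The stretch before an inner start of Zeb2, chr2:45110278-45110527, is not shown and held 1 CTTTGT on either strand. It met a peak in 4 of 4 Empty RV and 4 of 4 Tcf-1 RV libraries. Over 32817 RefSeq promoters of the same length, 27.6% held CTTTGA or CTTTGT and 17.2% held CACCTG. No Tcf-1 summit fell in any of the 4 stretches shown. The promoter table had entries for 5 of the 7 genes, and the strand of Snai2 and Zeb1 is not given in it.

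Twist1 and Twist2 had closed starts in thymocytes and open ones in fibroblasts. The Twist1 window held 0 peaks in all 4 DP libraries, 1, 2, 2 and 1 in Empty RV replicates 1 to 4, and 2, 2, 3 and 2 in Tcf-1 RV replicates 1 to 4. Its start lay in a region of 1380 bp, chr12:33956933-33958312, that was called in all 8 NIH3T3 libraries and in no DP library. The Twist2 window held 0 peaks in every DP library, 2, 3, 3 and 4 in Empty RV and 3, 2, 2 and 7 in Tcf-1 RV. Tcf-1 RV replicate 4, which has the longest list, stood above the other 7 NIH3T3 libraries there. The start of Twist2 lay in a region of 960 bp, chr1:91801007-91801966, called in 7 of 8 NIH3T3 libraries and missing in Empty RV replicate 1. A region inside Twist2, chr1:91816437-91817105, was open in all 8 and held a Tcf-1 summit.

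Prrx1 was also closed in thymocytes, but its open regions in fibroblasts lay away from its start. Its window held 0 peaks in each DP library, 1, 5, 4 and 7 in Empty RV and 5, 5, 4 and 6 in Tcf-1 RV. No library had a peak in the 250 bases before the RefSeq start of Prrx1, nor over the upper end of the gene, which is the start on its minus strand. Of its 9 NIH3T3 regions, 5 lay inside the gene and 8 held a Tcf-1 summit, against 27% of all NIH3T3 regions. The region called in all 8 libraries, chr1:163362048-163362602, lay 46.9 kb beyond the upper end. Empty RV replicate 1, with the shortest NIH3T3 list, had that region alone.

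**Figure D1:**
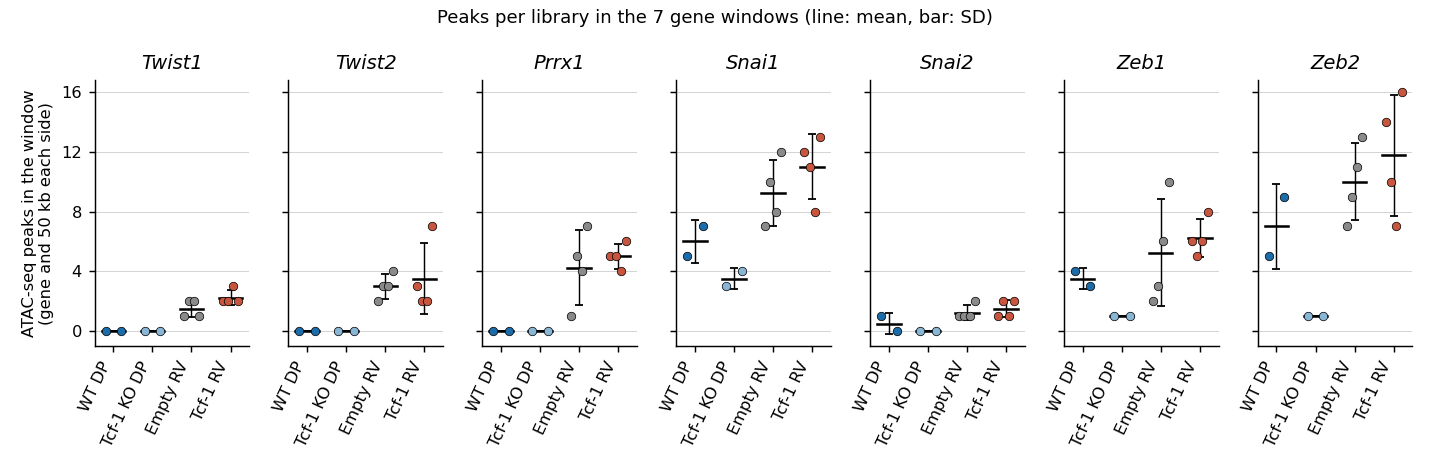
Number of ATAC-seq peaks in the window of each gene (gene and 50 kb each side), 1 point per library, with the mean as a line and the SD as a bar (n = 2 for WT DP and Tcf-1 KO DP, n = 4 for Empty RV and Tcf-1 RV). Twist1, Twist2 and Prrx1 sit at 0 in the 4 DP libraries, the Zeb2 points are at 5 and 9 in WT and 1 and 1 in KO, and the Empty RV and Tcf-1 RV points overlap for every gene.

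The Snail genes differed from each other. Snai1 had peaks in every library: 5 and 7 in WT DP, 3 and 4 in Tcf-1 KO DP, 7, 10, 8 and 12 in Empty RV and 12, 11, 8 and 13 in Tcf-1 RV. Its start, chr2:167537888-167538388 in fibroblasts and chr2:167537927-167538319 in thymocytes, was open in all 12 libraries, and it is the stretch with the CACCTG and ACAAAG shown above. The Snai1 window also covers Rnf114 and Spata2, and some of its peaks lay over these neighbours. Snai2 had 1 peak in WT replicate 1, 0 in the other 3 DP libraries, 1, 1, 1 and 2 in Empty RV and 1, 2, 1 and 2 in Tcf-1 RV. The lower end of Snai2 lay in a region of 875 bp, chr16:14705225-14706099, that was open in all 8 NIH3T3 libraries and in no DP library, and that held a Tcf-1 summit.

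Zeb1 and Zeb2 were open in both cell types, at places that partly differed. Of their NIH3T3 regions, 2 of 10 at Zeb1 and 2 of 17 at Zeb2 met a region open in both WT libraries. Over the 7 windows, 7 of 13 regions in both WT libraries met a peak in any NIH3T3 library, against 56.6% in the genome. Zeb1 had 4 and 3 peaks in WT DP, 1 and 1 in Tcf-1 KO DP, 2, 3, 6 and 10 in Empty RV and 6, 5, 6 and 8 in Tcf-1 RV. The lower end of Zeb1, chr18:5591268-5592125, was called in both WT libraries and KO replicate 1, with 617, 850 and 411 bp in peaks. In fibroblasts only Empty RV replicate 4 had a peak there, chr18:5592005-5592226. A region 44.3 kb beyond the upper end of Zeb1, chr18:5819749-5820665, was called in all 8 NIH3T3 libraries, both WT libraries and KO replicate 2. Zeb2 had 5 and 9 peaks in WT DP, 1 and 1 in KO, 7, 9, 11 and 13 in Empty RV and 14, 10, 7 and 16 in Tcf-1 RV. At the outermost start of Zeb2, chr2:45117210-45117670, only Empty RV replicate 4 and Tcf-1 RV replicates 1, 2 and 4 had a peak in fibroblasts. In thymocytes WT replicate 2 had one that ended just inside the gene from that start, chr2:45117089-45117440, and the other 3 DP libraries had none there. Both cell types had peaks near a start inside Zeb2, chr2:45110278-45110527 in the promoter table: chr2:45109897-45110612 was called in all 8 NIH3T3 libraries, and chr2:45109411-45110289 in all 4 DP libraries.

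Between Empty RV fibroblasts and WT thymocytes, the libraries of Twist1, Twist2 and Prrx1 did not overlap, with means higher by 1.5, 3 and 4.25 peaks. These are 3 of 7 genes, against 18.8% of 18950 genes above and 7.84% below. The exact two-sided permutation p was 0.133 for Twist1, 0.0667 for Twist2 and 0.133 for Prrx1, and 0.0667 is the smallest that 4 against 2 libraries allow. After Benjamini-Hochberg adjustment over all genes they were 0.501, 0.426 and 0.501, and no gene passed 0.05. Snai1, Snai2, Zeb1 and Zeb2 had means higher by 3.25, 0.75, 1.75 and 3 peaks, and their libraries overlapped. Per 10000 peaks of each list, Zeb1 was lower in fibroblasts by mean, at 1.19 ± 0.406 (SD, n = 4) against 1.34 ± 0.532 (SD, n = 2).

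**Figure D2:**
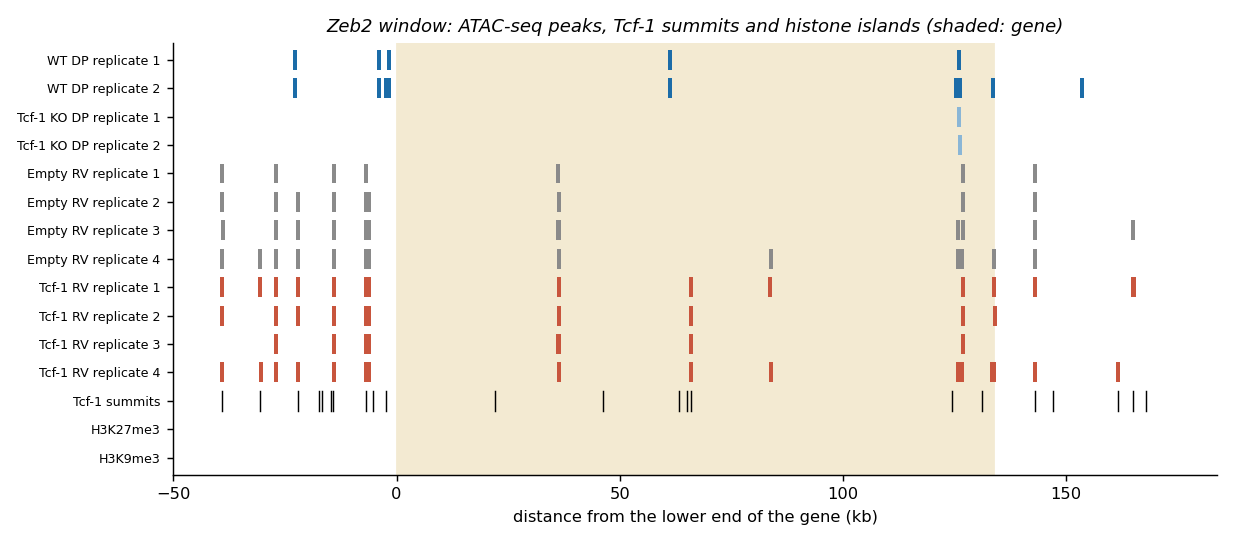
Peaks of the 12 ATAC-seq libraries (rows, coloured bars), Tcf-1 summits (black ticks) and histone islands present in both replicates (none in this window) along the Zeb2 window, with the distance from the lower end of the gene in kb and the gene shaded; narrow peaks are drawn wider than scale. The 4 regions that both WT libraries have and neither KO library has lie at -22.7, -4.01, -1.6 and 61.2 kb, and the column found in Tcf-1 RV alone lies at 66 kb.

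The DP comparison asked which open regions were missing without Tcf-1. In the Zeb2 window both WT libraries shared 5 regions, and 4 of them were called in neither KO library. They were chr2:44960592-44961007, chr2:44979209-44979803 and chr2:44981799-44982031 beyond the 3′ end of Zeb2, and chr2:45044610-45044846 inside it. Their WT peaks covered between 210 and 595 bp, and the nearest KO peaks lay between 33 and 64.8 kb away. The region kept in Zeb2 was the one near the inner start. Zeb1 lost 1 of 3 such regions, chr18:5610123-5610412 inside the gene, and Snai1 lost 1 of 5, chr2:167492392-167492683 over Spata2 and Rnf114. A KO peak lay 0.164 kb from the latter, so it was no longer lost when a region counted as absent only with no peak within 1 kb.

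Over the 7 windows, 6 of 13 regions in both WT libraries were lost, or 46.2%, against 45.7% of such regions in the genome. Another 4 were called in all 4 DP libraries (42.1% in the genome), 3 in 1 KO library, and no region was gained (0.142% of all DP regions were). The share lost in the 7 windows is thus near that of all regions, and when all lists were shortened to an equal number of their widest peaks 1 region, in the Zeb2 window, was lost. Of the 6 lost regions 1 met a peak in any NIH3T3 library, and of the 4 kept regions all 4 did. In the genome these shares were 34.9% of lost and 82.1% of kept regions.

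By peak number, WT libraries lay above KO libraries for Snai1, Zeb1 and Zeb2, which are 3 of the 4 genes with a DP peak, against 57.4% of 17030 genes above and 0.482% below. The mean of Zeb2 was 7 peaks in WT and 1 in KO, that of Zeb1 3.5 and 1, and that of Snai1 6 and 3.5. The median gene had 1.5 fewer peaks in KO. An exact permutation of 2 against 2 libraries cannot go below 0.333, the value of all 3 genes, so no call can be made by test. Per 10000 peaks, Zeb2 stayed lower in KO, with 2.15 and 2.9 in WT against 0.819 and 0.895, and Zeb1 did so too, with 0.968 and 1.72 against the same KO values. Snai1 turned over on that scale, with 2.15 and 2.26 in WT against 2.69 and 3.28 in KO.

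In NIH3T3 cells, 1 region was gained with Tcf-1 RV and 1 lost among the 63 regions of the 7 windows. Another 44 were called in only some libraries and met neither rule. Of these, 16 were in 1 library alone, 9 of them in Tcf-1 RV replicate 4. The gained region, open in 4 of 4 Tcf-1 RV and 0 of 4 Empty RV libraries, lay inside Zeb2 at chr2:45049326-45049700. Its peaks were 250 to 375 bp wide, it held a Tcf-1 summit with a score of 18.9 at position 45049405, and the nearest Empty RV peaks were 17.5 to 29.4 kb away. The lost region, open in 4 of 4 Empty RV and 0 of 4 Tcf-1 RV libraries, lay 24.4 kb beyond the 3′ end of Twist2 at chr1:91872470-91872784. Its peaks were 200 to 260 bp wide and it held no summit. Tcf-1 RV replicate 4 had a peak 2.01 kb from it, and the nearest peaks of the other 3 lay 48.8 to 55.4 kb away.

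Each call is 1.59% of the regions, against 1.08% of all NIH3T3 regions gained and 0.11% lost. Both remained when any 1 library was left out and within each day named in the deposited files. A region in 4 of 4 and 0 of 4 libraries nearly always meets the rule in such a subset, so this was no separate check. Neither remained when all lists were shortened to an equal number of their widest peaks. On day 2 alone, 5 regions were gained, in the windows of Prrx1, Snai1, Zeb1 and Zeb2, and on day 4 alone 1, in Zeb2. These counts need only 2 of 2 against 0 of 2 libraries, a looser rule than that behind the 1.08%. No share over all regions was taken for it, and the day 2 Empty RV lists (22778 and 34601 peaks) are the shortest of NIH3T3. A further 17 regions, or 27%, were open in all 8 libraries, against 24% in the genome, and 8 of these 17 held a summit (38.8% in the genome).

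By peak number, no member separated Tcf-1 RV from Empty RV. The background was 0.639% of 18950 genes above and 0.0317% below. All 7 means were higher with Tcf-1, from 0.25 peaks for Snai2 to 1.75 for Snai1 and Zeb2, while the median over all genes was 0.5. The exact permutation p ran from 0.286 for Twist1 to 1 for Snai2 and was 1 after adjustment for each. Without adjustment 0.67% of all genes were under 0.05, and after it 0. Per 10000 peaks the direction turned for Twist2, Snai1, Snai2 and Zeb2. Within day 2 the libraries of Snai1, Zeb1 and Zeb2 did not overlap, with Tcf-1 RV higher, and within day 4 none of the 7 did so. No share over all genes was taken for 2 against 2 libraries, where groups separate more easily. On day 2 both Tcf-1 RV lists (47623 and 43527 peaks) were longer than both Empty RV lists (22778 and 34601). The day 2 result is thus not a finding about these genes.

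No part of the 7 genes lay in an H3K27me3 island of both NIH3T3 replicates. This mark of Polycomb repression touched 24.2% of all genes and the end of 16.5%. Its islands came near the Twist genes: in the Twist1 window they covered 34.6 kb, or 33.9%, and began 6.47 kb before the gene, over the side of Ferd3l, a related helix-loop-helix gene. In the Twist2 window they covered 33 kb, or 22.5%, at 12.3 kb from the gene and beyond, and in the Snai2 window 5.4 kb, or 5.22%. Prrx1, Snai1 and Zeb1 had 0 kb in each replicate, and Zeb2 had 1 island of 4.8 kb with a fold of 1.65 in replicate 1 and none in replicate 2. Of all genes 67.4% had an island of both replicates in the window, and the median over all genes was 6.24% of the window.

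H3K9me3, the mark of constitutive heterochromatin, lay inside 3 of the 7 genes, Twist2, Prrx1 and Zeb1, against 21.2% of all genes. Zeb1 had the most, with 49.9 kb or 27.1% of the gene in islands of both replicates, and its upper end was inside one (9.39% of genes have an end in an island). The folds over control of the 8 islands in the Zeb1 window were 2.54 to 6.81 in replicate 1 and 2.53 to 4.8 in replicate 2. Prrx1 had 13.6 kb, or 19.4%, and the 3 islands of its window had folds of 1.85 to 3.41 and 1.66 to 5.38 in the replicates. Twist2 had 2 kb, or 4.29%, and Twist1, Snai1, Snai2 and Zeb2 had none inside the gene. The Zeb2 window held no H3K9me3 island in either replicate, and the other 6 windows did in both, against 56.6% of all genes.

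**Figure D3:**
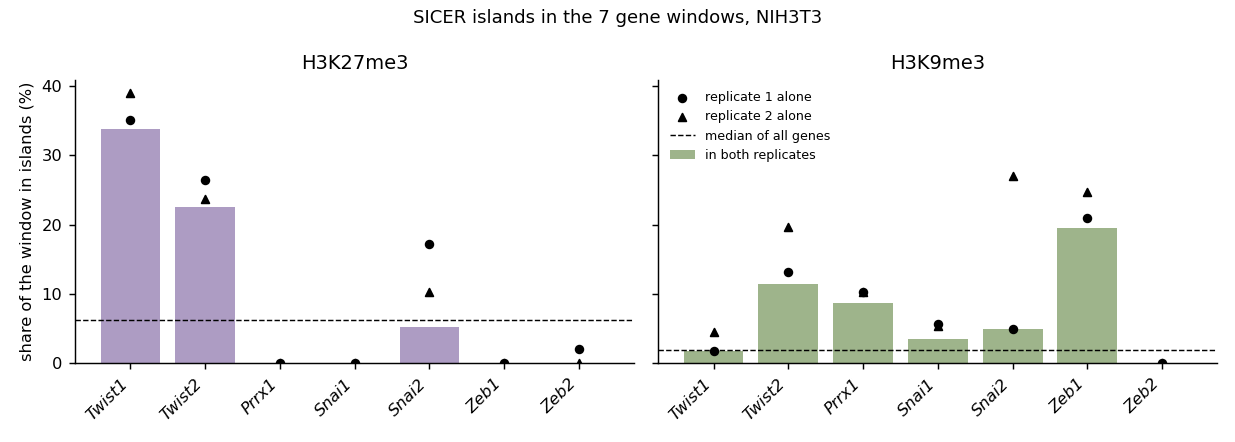
Share of each window (%) in H3K27me3 (left) and H3K9me3 (right) islands of NIH3T3 cells; bars show the bases in islands of both replicates, points the 2 replicates alone, and the dashed line the median of all genes. Twist1 and Twist2 stand above the median for H3K27me3 at 33.9% and 22.5%, Zeb1 is highest for H3K9me3 at 19.6%, and Zeb2 is at 0 for both marks by the bars.

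Tcf-1 summits were dense at Prrx1, Twist2 and Zeb2. The 7 windows held 88 of the 40562 summits: 2 at Twist1, 14 at Twist2, 33 at Prrx1, 4 at Snai1, 2 at Snai2, 11 at Zeb1 and 22 at Zeb2. Per 100 kb of window the density was 19.4 for Prrx1, 9.55 for Twist2 and 9.4 for Zeb2. It was 3.87 for Zeb1, 3.82 for Snai1, 1.96 for Twist1 and 1.93 for Snai2, and the median gene had 1.59. Of all protein-coding genes 99.96% had a lower density than Prrx1, 99.1% than Twist2 and 99% than Zeb2. The list is 1 merged file, so these densities have no replicate error, and 72.1% of all genes had a summit in the window.

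**Figure D4:**
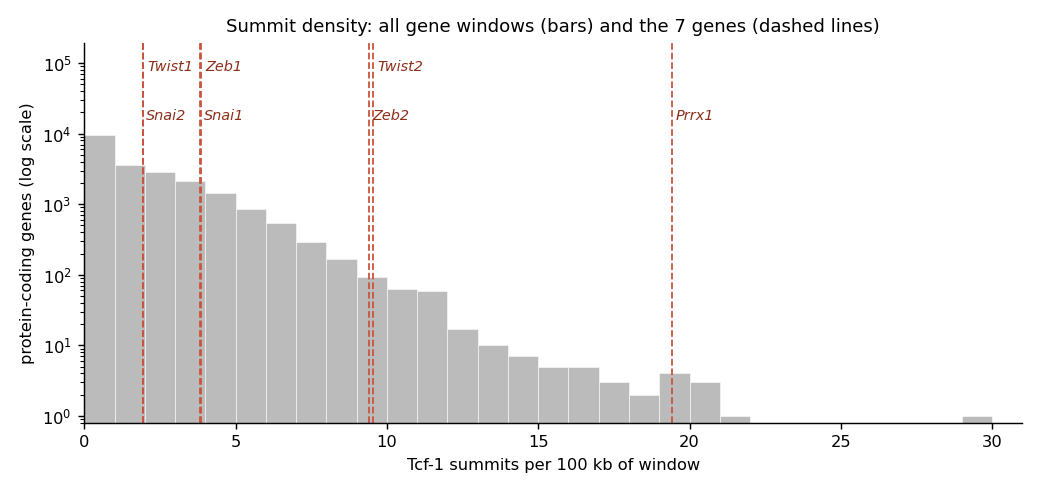
Histogram of Tcf-1 summits per 100 kb of window over the 21883 protein-coding genes (bars, log scale on the vertical axis), with the 7 genes as dashed lines. Prrx1 stands at 19.4, Twist2 and Zeb2 at 9.55 and 9.4, and the other 4 genes between 1.93 and 3.87.

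Most summits at Prrx1 lay outside the peaks of the ATAC-seq lists. At Prrx1 20 of the 33 were inside the gene, and 8, or 24.2%, lay in a peak of any NIH3T3 library, against 53.5% of all summits. The 25 outside peaks had a median score of 27.4, above the median of 17 of the whole list. The Prrx1 summit with the highest score, 106.2, at chr1:163280601 inside the gene, lay in a region called in 4 of 4 Tcf-1 RV and in Empty RV replicates 3 and 4. Another, with a score of 99.9 at chr1:163209302, lay 35.8 kb beyond the 3′ end in a region called in 7 of 8 libraries. The share in peaks was 28.6% for Twist2, 36.4% for Zeb1 and 40.9% for Zeb2, and 3 of 4 summits at Snai1 and both at Snai2 were in peaks. Over the 7 windows 31 of 88 summits, or 35.2%, were in a peak of any NIH3T3 library. The summit list is named as day 2, while these libraries are named as day 2 or day 4.

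Of the 88 summits 2, both at Twist2, lay in H3K27me3 islands, or 2.27%, against 4.67% of all summits. In H3K9me3 islands lay 5, or 5.68%, against 6.67% of all summits: 4 of the 33 at Prrx1 and 1 of the 4 at Snai1, with none of the 11 at Zeb1. A single summit of the 88, or 1.14%, lay in a region open in both WT DP libraries, at chr18:5820045 beyond Zeb1, against 6.7% of all summits. These shares were not tested.

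**Figure D5:**
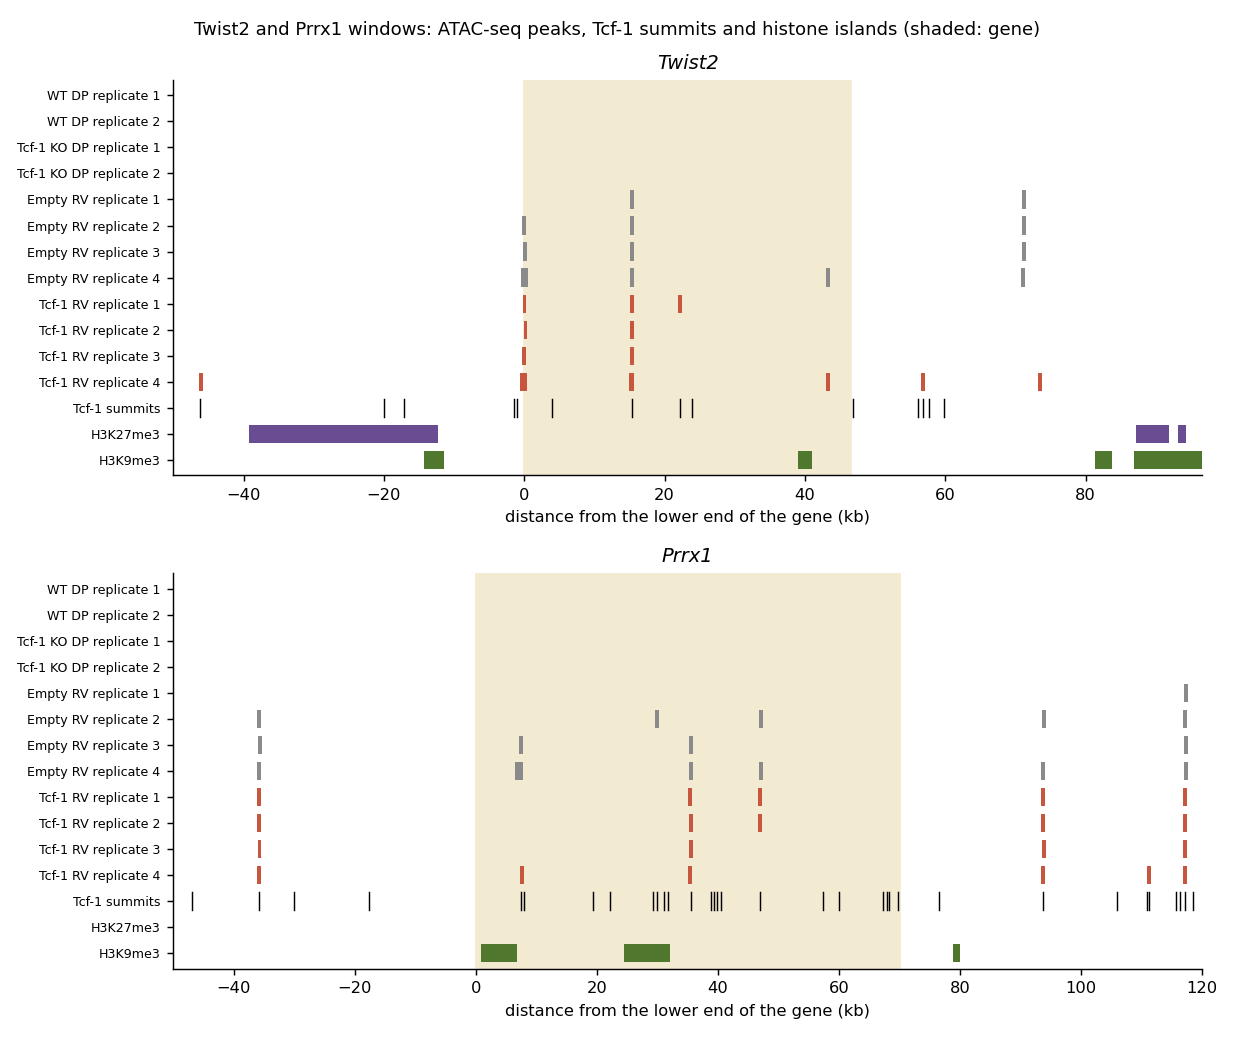
Peaks (coloured bars, 1 row per library), Tcf-1 summits (black ticks) and islands of both replicates (bottom rows) along the Twist2 and Prrx1 windows, by distance from the lower end of the gene in kb, with the gene shaded; narrow peaks are drawn wider than scale. The 4 DP rows are empty in both windows, the column at 71.2 kb in the Twist2 panel is in Empty RV alone, and 33 summits stand in the Prrx1 panel against 9 merged open regions.

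The genes with the most similar pattern of peaks per 10000 over the 12 libraries (Pearson r of log2 of the value plus 0.1) were Marco for Twist1 (r = 0.981), Dmp1 for Twist2 (0.993), 9130008F23Rik for Prrx1 (0.996) and Gata2 for Snai2 (0.971). For Snai1 it was Kansl1 (0.897), for Zeb1 Scd1 (0.918) and for Zeb2 Brat1 (0.976). The points are 12 libraries of 2 cell types that share their depth, and each partner is the highest of 17043 to 17047 genes, so r is a description. The Brat1 window had 1 and 4 peaks in WT DP and 0 in both KO libraries, where the Zeb2 window had 5 and 9 against 1 and 1.

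Among 21 partners and relatives of the 7 factors, 5 of 13 with a region in both WT DP libraries had a lost one, against 64.3% of genes. Tcf4, an E protein that pairs with Twist, lost 6 of 8 in DP and gained 1 of 19 in NIH3T3. Snai3 lost 3 of 5, and Id1, an inhibitor of E proteins, and Tcf15 lost 2 of 2 each. In NIH3T3, 2 of the 19 with a region gained one, Tcf4 and Foxc1 (the latter named after its values were seen), against 6.11% of genes. An end of the gene lay in an H3K27me3 island for 6 of 21, against 16.5% of all genes.

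The TGF-beta pathway, which induces several of the 7 genes, had 12 of 15 genes with a lost DP region, against 64.3% of genes. It had 0 of 16 with a gained or lost NIH3T3 region, against 6.11% and 0.575% of genes. The genes with the most lost regions, ties by alphabet, were named. Smad4, the shared Smad partner, lost 5 of 7, the receptors Tgfbr2 and Tgfbr3 lost 4 of 7 and 4 of 6, and Inhba, a subunit of activin, lost 2 of 3. Of all regions in both WT libraries 45.7% were lost. The median summit density of these 16 genes was 3.34 per 100 kb.

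Epithelial genes, which the Snail and Zeb factors are known to hold down, had an end in an H3K27me3 island in 12 of 18 cases, against 16.5% of all genes. So did 11 of 12 T lineage, 2 of 5 myeloid, 2 of 4 B lineage and 0 of 10 fibroblast markers. The trait is thus not particular to epithelial genes. In DP 8 of 16 epithelial genes had a lost region, a smaller share than the 64.3% of genes. Those with the most lost regions were Cldn4, which lost 4 of 6, Cldn3 3 of 4, Epcam 3 of 4 and Crb3 2 of 5. Cldn3 and Cldn4 both lie on chromosome 5, and whether their windows share these regions was not checked. In NIH3T3 1 of 18 gained a region, Grhl2, and 1 lost one, Cdh1 (E-cadherin), both named after their values were seen, against 6.11% and 0.575% of genes. Their median density was 2.19 summits per 100 kb.

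Mesenchymal effectors, the structural and matrix genes of such cells, had a median of 7.33 summits per 100 kb, against 1.59 over all genes. None of the 16 had an end in an H3K27me3 island, against 16.5% of all genes. In NIH3T3 3 of 16 gained a region, against 6.11% of genes, and none lost one, against 0.575%: Mmp14, a membrane-bound matrix protease, gained 2 of 12, and Itgb1, the integrin beta chain, 1 of 15. Postn, named after its values were seen, also gained 1. In DP 8 of 11 had a lost region, near the 64.3% of genes, with Acta2 at 5 of 6, Itgb1 at 4 of 5 and Cd44 at 4 of 5. Apart from those named after their values were seen, the genes named in the 4 lists are those with the most gained or lost regions. Their lost shares are thus high by choice, and 45.7% of all regions in both WT libraries were lost. No test was run on these lists. Their windows reach 50 kb past each gene, so a counted region can lie at a neighbouring gene, which was not checked.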

How the data were processed

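Per the submitters' processing notes, FastQC, Trim Galore, Bowtie2 2.2.9, Picard, MACS2 and STAR 2.5 were used with the builds GRCm38 and mm10. GRCh37 is named as well. The authors deposited ATAC-seq peaks as intervals without heights, so read depth is unknown and the list lengths stand in for it. Each deposited histone island carries ChIP and control read counts, a p-value, an adjusted p-value and a fold over control in SICER's format. The authors' Tcf-1 list gives a position and a score per summit, and per the labels it is a merged overlap list with an IDR filter. The scale of that score is not stated.

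Peaks that share 1 bp were merged within DP and within NIH3T3, and 293 peaks on unplaced sequences were left out. A region was lost in DP if both WT and neither KO library had it, and gained or lost in NIH3T3 if 4 of 4 libraries of 1 arm and 0 of 4 of the other had it. Peaks per window were compared by exact two-sided permutation over all protein-coding genes with a peak, with Benjamini-Hochberg adjustment. Python 3.11.15, numpy 2.4.6, pandas 2.3.3 and scipy 1.17.1 were used, and the code was tested on simulated data. NIH3T3 libraries of the same number deviated together (correlations 0.187, 0.189, 0.125 and 0.26 over 77882 regions). Those of the same day but another number were positive too (0.0722 and 0.194 on day 2, 0.0809 and 0.0648 on day 4). Between days all were negative, from -0.243 to -0.0895. Pairing by number and a shared day thus cannot be clearly told apart. Pairs by number entered only a check, the replicate block, and the tests and region calls above were unpaired. In DP the correlation was -0.0505, so numbers do not pair there, though the block was run on DP too. Day numbers come from file names alone and pair with the replicate numbers, 1 and 2 on day 2, 3 and 4 on day 4. The Tcf-1 summit list carries day 2 in its name.

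All 7 genes were described, with the 1 most similar gene for each and up to 4 genes per list by number of gained or lost regions, ties by alphabet. The genes and the lists were chosen with earlier results of these data known. Zeb2os was not in the table of protein-coding genes. RNA-seq and single-cell libraries, the input library, the Tcf-1 ChIP-seq of Empty RV cells and the H3K27me3, H3K9me3 and H3K27ac ChIP-seq of Tcf-1 RV cells were not analysed here.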

Additional observations from a re-analysis of the deposited data

Results flagged for a closer look

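A library stood far from the other 3 of its group in 2 of the 14 groups of 4 tested by Dixon's ratio at its 95% critical value. The Snai2 window held 2 peaks in Empty RV replicate 4 and 1 in each of the other 3. The Twist1 window held 3 peaks in Tcf-1 RV replicate 3 and 2 in each of the other 3. Both gaps are a single peak. The ratio is always 1 when 3 of 4 counts are equal, so the rate of about 1 in 20 that chance gives for continuous values does not apply to these small whole numbers.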

How the results depend on the processing

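Peak lists give no depth, so a missing peak is a peak not called. DP regions lost were 6, 2 within the gene bodies, 1 when all lists were shortened to an equal number of their widest peaks, 16 under the replicate block (numbers do not pair there), and 7 to 12 with a library left out, 12 without WT replicate 1. NIH3T3 regions gained were 1, 0 with the widest peaks alone and 5 on day 2 alone. NIH3T3 regions lost were 1, and 0 with the widest peaks, within 10 kb or within the gene bodies. Under the replicate block they were 1 gained and 1 lost, and the block changed no other call. Genes whose arms did not overlap between Tcf-1 RV and Empty RV were 0, 1 with the widest peaks (Prrx1, higher with Tcf-1 RV, exact permutation p = 0.0286 unadjusted) and 3 on day 2 alone. For the day 2 counts of regions and genes no share over the genome was taken. Those between Empty RV and WT DP were 3, and 3 to 5 with a library left out, 5 without WT replicate 2. Summits in the windows were 88, 49 within 10 kb, 37 in the gene bodies and 48 with scores above the list's median, and those in open regions 31, 13, 10 and 20. Directions that turned, all in differences that did not pass the test, were as follows. For Tcf-1 RV minus Empty RV, Prrx1 was -0.25 within 10 kb and in the gene body, -0.33 to 1.67 with a library left out (lowest without Empty RV replicate 1) and -0.5 on day 4. Snai2 was -0.25 within 10 kb. With the widest peaks Twist2 was -0.25, Snai1 -1.75 and Zeb2 -1.5, and per 10000 peaks Twist2 was -0.0804, Snai1 -0.108, Snai2 -0.00605 and Zeb2 -0.14. With a library left out Twist2 was -0.67 (without Tcf-1 RV replicate 4) to 1 and Zeb1 -0.0833 (without Empty RV replicate 1) to 2.58, and on day 4 Zeb1 was -1 and Zeb2 -0.5. For Empty RV minus WT DP, Zeb1 was -0.25 in the gene body, -1.25 with the widest peaks and -0.157 per 10000. For WT minus KO, Snai1 was -2.5 with the widest peaks and -0.776 per 10000. The causes were not tested.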
